A study of Mus musculus with 40 samples.

Results

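The erythroid miRNAs are the small RNAs for which red blood cells are best known: miR-451a and both arms of miR-144, which are made from neighbouring hairpins, and both arms of the miR-486 pair. They comprise 7 of the 1978 mature miRNAs counted in hippocampal tissue, namely mmu-miR-451a, mmu-miR-144-3p, mmu-miR-144-5p, mmu-miR-486a-5p, mmu-miR-486a-3p, mmu-miR-486b-5p and mmu-miR-486b-3p. They were chosen by name, after miR-486a-3p had been seen among the largest decreases between 3 and 6 months in transgenic mice, so that their values in that comparison are a description and carry no test. The question asked of them was whether they changed together, and together with other miRNAs of blood.

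Small RNA libraries were prepared from the CA1 region of the hippocampus of 40 mice, 1 library per mouse. CamKIIδC TG mice carry extra calcium/calmodulin-dependent protein kinase II in its δC form and develop heart failure, and the control mice were wild-type littermates on the same C57Bl/6J background. By their titles, 5 libraries came from wild-type control mice aged 3 months, 9 from TG mice of that age, 15 from wild-type control mice aged 6 months and 11 from TG mice of that age, with males and females among them. The promoter that drives the transgene is not given in the sources used here. For wild-type control mice 1 and 2 at 3 months the genotype field reads TG, and the title was used. Per the methods of the study, the hearts were flushed until free of blood, and no such step is described for the brain. In bulk tissue, fewer cells of a type and less RNA per cell cannot be told apart.

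MiRNAs pair through their seed, bases 2 to 8, with sites in messenger RNAs and lower the output of those messengers. The gene for miR-144 and miR-451a is switched on by the erythroid factor GATA1 as red cells mature, and miR-451a, whose hairpin is too short for Dicer, is cut by Argonaute 2 and becomes one of the main miRNAs of the red cell. miR-486 lies in the ankyrin gene Ank1, whose product ties the red cell membrane to its skeleton, and is also made in muscle.

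The mature sequences are shown because arms of the same hairpin, and miRNAs of the same cell, are compared below. They were taken from RefSeq on GRCm38.p6 and are written 5′ to 3′ with the seed in capitals:
mmu-miR-451a: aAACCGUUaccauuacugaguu
mmu-miR-144-3p: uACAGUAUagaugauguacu
mmu-miR-144-5p: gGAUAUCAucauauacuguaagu
The 3 seeds differ, and no other miRNA with a matched sequence shared any of them. The sequences held 36.4% G and C in miR-451a, 30.0% in miR-144-3p and 30.4% in miR-144-5p. The 72-base hairpin of miR-451a, shown because its mature strand (capitals) runs from base 17 to base 38 and so through the loop, reads:
Mir451a hairpin: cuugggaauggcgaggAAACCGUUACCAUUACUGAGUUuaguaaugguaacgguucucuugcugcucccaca
Sequences of miR-486a and miR-486b were not used here.

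In the GENCODE annotation of GRCm38, Mir144 lies on the plus strand of chromosome 11 from 78073005 to 78073070 and Mir451a from 78073170 to 78073241, with 99 bases between them. Mir451b is annotated over the same bases as Mir451a on the minus strand, and the nearest end of Eral1, a protein-coding gene, is 134 bases from Mir451a. Mir486 lies on the plus strand of chromosome 8 from 23142555 to 23142682, and Mir3107, the older name of the miR-486b hairpin, on the minus strand from 23142573 to 23142662. These hairpins overlap by 90 bases and sit in introns, within Ank1 and the antisense gene Gm15816, with no exon of either.

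Library totals over all pairs of mature miRNA and precursor hairpin, with spike-ins, ranged from 2656368 to 36547011 counts. A miRNA with several precursors enters such a total with each of them. With only the precursor of the largest sum kept for each miRNA, the mature counts were 1926108 to 22892729. A floor of 3 counts corresponded to 0.131 to 1.56 CPM (counts scaled to a common total of mature miRNA counts with TMM factors), which covers counting error only. Nothing in the labels says how mice were spread over library preparations or runs. Libraries at 3 months were deeper, with a median total of 22455957 counts in wild-type control and 29499287 in TG mice against 14908612 and 13894826 at 6 months. Over 357 miRNAs outside the erythroid set, 6 of the 14 libraries at 3 months lay closer to the 6-month profile than to the 3-month profile, and these were wild-type control mice 1 and 5 and TG mice 1, 2, 3 and 8. Conversely, 9 of the 26 libraries at 6 months lay closer to the 3-month profile. Wild-type control mice 1 and 5 and TG mouse 8 also lay with the older mice in single miRNAs given below, while TG mice 1, 2 and 3 stood apart by their base composition and their high miR-486.

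Across the 40 libraries, the 5p arms of miR-486 and miR-451a were among the well expressed miRNAs of the tissue. Mean levels were 460.5 CPM for miR-486b-5p, 443 CPM for miR-486a-5p and 290.4 CPM for miR-451a, which ranked 108, 112 and 131 of 1978. The other 4 were low, at 13.4 CPM for miR-486a-3p, 4.26 CPM for miR-144-5p, 2.17 CPM for miR-486b-3p and 2.11 CPM for miR-144-3p. Every library held at least 518 counts of miR-451a and 1085 of miR-486a-5p. By contrast, miR-144-3p had a median of 17 counts, fewer than 10 in 10 libraries and none in 2, and miR-486b-3p had fewer than 10 counts in 14 libraries.

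The counts of miR-486a-5p and miR-486b-5p could not be separated. Their ratio was 1.02 to 1.05 in every library, so that, although each is named and counted below, they hold 1 measurement and a call of both is not 2 separate calls. miR-451b, whose hairpin occupies the same 72 bases as that of miR-451a on the opposite strand, had no count in any library.

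**Figure D1:**
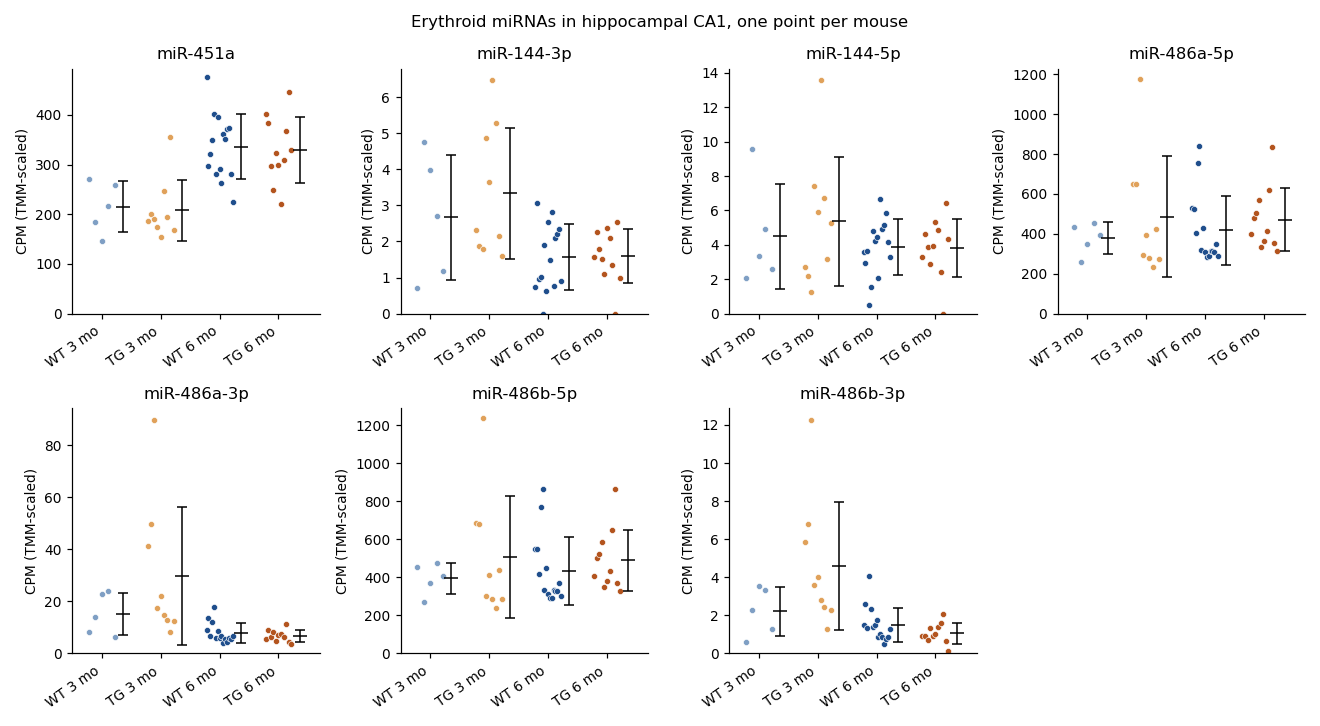
Level of each erythroid miRNA in CPM (vertical axes, linear from 0) in every mouse, by genotype and age; the black mark and bar are the mean and SD of the group. The 6-month points of miR-451a sit above the 3-month mean in both genotypes, while those of miR-486a-3p lie below the 3-month mean in 14 of 15 wild-type control and 11 of 11 TG mice.

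To ask how the erythroid miRNAs changed with age in mice whose values had no part in choosing them, wild-type control mice were compared at 6 and 3 months. miR-451a was higher at 6 months and the 3p arms of miR-486 and miR-144 were lower, but none passed the threshold of an adjusted p under 0.05 in edgeR's quasi-likelihood test. Of all 660 miRNAs tested, 0.152% were called, and 0 of the 7 erythroid miRNAs.

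miR-451a, the most specific red cell miRNA of the set, measured 271, 184, 146, 216 and 258 CPM in wild-type control mice 1 to 5 at 3 months. In the 15 mice at 6 months it ranged from 225 to 477 CPM with a median of 349. All 15 lay above the 3-month mean of 215 CPM and 13 above the highest 3-month mouse, although the ranges overlapped. The older mice averaged 336 ± 65.1 CPM (SD, n = 15) and the younger 215 ± 51.8 CPM (SD, n = 5), which gave a log2FC of 0.63 ± 0.18 (SE) and an adjusted p of 0.179 in edgeR (unadjusted p = 0.00151). DESeq2, which the study used together with RUVSeq, gave the same log2FC of 0.63 with an adjusted p of 0.0117. The call thus depended on the tool. Over all alternatives run the log2FC lay between 0.45 and 0.88 and the adjusted p between 0.00378 and 0.617.

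miR-486a-3p, the strand of the miR-486a hairpin that is usually discarded, went the other way. It measured 8.41, 14.2, 23.0, 23.8 and 6.40 CPM in the 5 mice at 3 months, and 3.90 to 17.8 CPM with a median of 6.54 at 6 months. Of the 15 older mice, 14 lay below the 3-month mean of 15.2 CPM, while mice 3 and 4 at 3 months lay above the 6-month range and the other 3 within it. The log2FC was −1.02 ± 0.31 (SE), with an adjusted p of 0.179 in edgeR and of 0.0456 in DESeq2; over the alternatives the log2FC ran from −1.41 to −0.31 and the adjusted p from 0.000934 to 0.999. Scaling by library totals alone also gave a call (log2FC −1.25, adjusted p = 0.0248 in edgeR).

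miR-486a-5p, the guide strand of the same hairpin, had a value near 0. Its levels at 3 months were 433, 259, 351, 457 and 395 CPM and at 6 months 284 to 840 CPM with a median of 321, and the 3-month values lay inside the 6-month range except for mouse 2. The log2FC was 0.12 ± 0.24 (SE) with TMM and −0.13 ± 0.16 with library totals alone, so its sign rested on the scaling. Library totals moved the median log2FC of all miRNAs by −0.17 in this comparison.

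The remaining members were at low counts. miR-486b-3p had a log2FC of −0.75 ± 0.36 (SE; adjusted p = 0.321, edgeR), with means of 2.21 CPM at 3 and 1.51 CPM at 6 months. miR-144-3p, the strand usually counted as the guide of its hairpin, measured 0.720, 4.76, 3.98, 2.70 and 1.17 CPM at 3 months and 0 to 3.06 CPM at 6 months (log2FC −0.73 ± 0.39, SE; adjusted p = 0.375, edgeR). Its partner miR-144-5p measured 4.50 ± 3.05 (SD, n = 5) and 3.86 ± 1.63 CPM (SD, n = 15), with a log2FC of −0.19 ± 0.33 (SE) that became 0.30 without mouse 2. Thus miR-144 and miR-451a, made from hairpins 99 bases apart, had fitted differences of opposite sign for the 3p arm of miR-144, neither of them called.

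In CamKIIδC TG mice the same comparison of ages had served to choose the set, and it is given as a description. There, 15.7% of 629 miRNAs were called (47 higher and 52 lower at 6 months; 32 and 76 with library totals alone, which moved the median log2FC by −0.20). Among the erythroid miRNAs 4 were called, with miR-451a higher and miR-486a-3p, miR-486b-3p and miR-144-3p lower; nothing is read from that count, since the contrast chose the set.

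miR-451a in TG mice was 155 to 356 CPM at 3 months (median 190) and 221 to 447 CPM at 6 months (median 323). All 11 older mice lay above the 3-month mean of 208 CPM, and the highest value at 3 months was that of TG mouse 8. Its log2FC of 0.68 ± 0.16 (SE) stood beside 0.63 ± 0.18 in wild-type control mice, and the ratio of means was 1.59 in TG against 1.56 in wild-type control mice. Without TG mouse 8, the log2FC of miR-451a was 0.82.

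miR-486a-3p in TG mice was 8.10 to 89.9 CPM at 3 months (median 17.5) and 3.79 to 11.2 CPM at 6 months (median 6.50). Mice 1, 2 and 3 held the highest values, at 41.3, 49.7 and 89.9 CPM, while the lowest was that of mouse 8. All 11 older mice lay below the 3-month mean of 29.9 CPM and 8 below every 3-month mouse. The log2FC was −2.14 ± 0.37 (SE), and −1.14 ± 0.22 when mice 1, 2 and 3 were left out.

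miR-486b-3p followed its counterpart with a log2FC of −2.16 ± 0.38 (SE), and miR-144-3p, at 3.33 ± 1.81 CPM (SD, n = 9) and 1.60 ± 0.737 CPM (SD, n = 11), had −0.98 ± 0.31. miR-144-5p had a log2FC of −0.44 ± 0.36. The guide strand miR-486a-5p ranged from 232 to 1179 CPM at 3 months and from 312 to 837 CPM at 6 months, and its log2FC was −0.02 ± 0.27. That value too rested on TG mice 1, 2 and 3, which measured 651, 650 and 1179 CPM; without them it was 0.59 ± 0.21. All 7 erythroid miRNAs were then called, as were 47.6% of all 662 miRNAs tested, and nothing is read from that count. These mice were left out after their values had been seen.

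**Figure D2:**
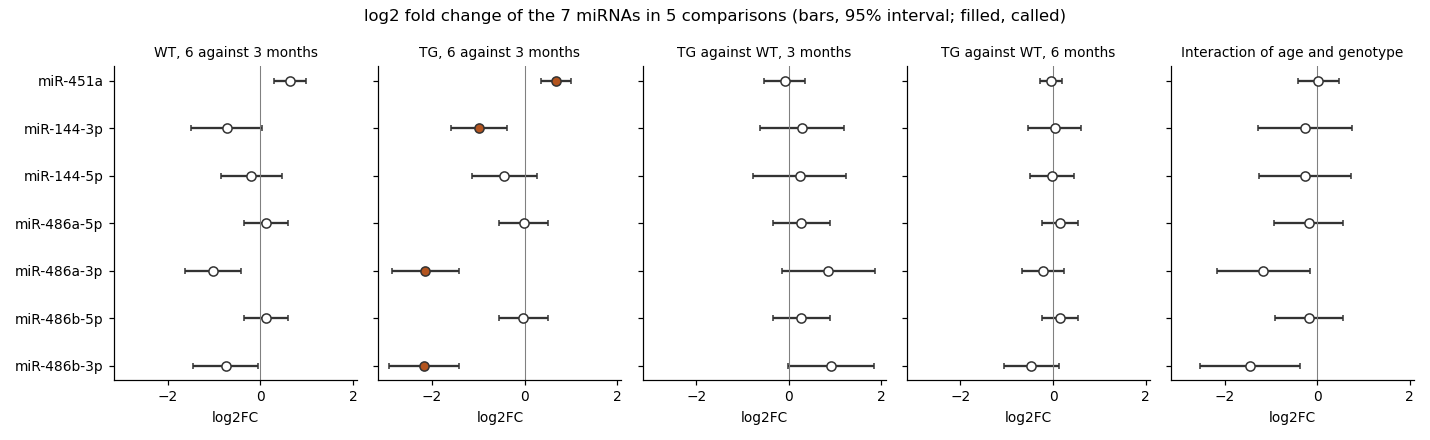
Fitted log2FC (horizontal axes) of the 7 erythroid miRNAs (rows) in 5 comparisons, with 95% intervals; filled points were called. Calls appear only in TG mice between 3 and 6 months, where miR-451a is at 0.68 and miR-486a-3p at −2.14.

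To ask whether heart failure altered the erythroid miRNAs, CamKIIδC TG mice were compared with wild-type control mice at each age; these comparisons share the TG mice with the comparison that chose the set. At 3 months 0% of 695 miRNAs were called, with 7 at an unadjusted p under 0.05, and DESeq2 called 0 of the 7 erythroid miRNAs as edgeR did. miR-451a was 208 ± 61.3 CPM (SD, n = 9) in TG mice against 215 ± 51.8 CPM (SD, n = 5) in the controls, with overlapping ranges and a log2FC of −0.09 (95% interval −0.53 to 0.35; adjusted p = 0.998, edgeR). The 3p arms of miR-486 had the largest differences, with a log2FC of 0.86 (−0.14 to 1.85) for miR-486a-3p and 0.91 (−0.02 to 1.83) for miR-486b-3p, each with an adjusted p of 0.998. The first of these became −0.055 without TG mice 1, 2 and 3. For miR-144-3p the log2FC was 0.28 ± 0.47 (SE) and for miR-144-5p 0.24 ± 0.51, beside a median of 0.04 over all miRNAs. Both turned negative, at −0.14 and −0.093, when wild-type control mice 1 and 5 and TG mouse 8 were left out.

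At 6 months 0% of 612 miRNAs were called, with 3 at an unadjusted p under 0.05, and again neither edgeR nor DESeq2 called an erythroid miRNA. miR-451a was 330 ± 66.4 CPM (SD, n = 11) in TG mice against 336 ± 65.1 CPM (SD, n = 15) in the controls, a log2FC of −0.05 whose 95% interval ran from −0.29 to 0.20 (adjusted p = 0.992, edgeR). Of the others, miR-486b-3p had the largest log2FC, −0.47 (−1.07 to 0.12), and the remaining 5 lay between −0.21 and 0.16, with adjusted p-values of 0.992 to 0.999 in edgeR. The levels of each erythroid miRNA overlapped between the genotypes at either age.

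The change with age was then compared between genotypes by the interaction of age and genotype over the 40 mice, in which 0% of 699 miRNAs were called and 14 had an unadjusted p under 0.05. This interaction shares the TG mice with the comparison that chose the set, so the unadjusted p-values of the erythroid miRNAs are not free of that choice. For miR-451a the difference in log2FC was 0.02 (95% interval −0.43 to 0.47; adjusted p = 0.991, edgeR). For miR-486b-3p it was −1.45 (−2.53 to −0.37) and for miR-486a-3p −1.16 (−2.17 to −0.15), each with an adjusted p of 0.986 and unadjusted p-values of 0.0117 and 0.0296. So the larger fitted decrease of these arms in TG mice did not pass the test of the difference, and an equal decrease was not shown either. Over all alternatives run, the interaction lay between −1.47 and −0.15 for miR-486a-3p and between −2.05 and −0.77 for miR-486b-3p. DESeq2 called 0 erythroid miRNAs here as well.

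Ratios of counts within a library do not depend on how libraries are scaled, and 6 such ratios were compared in 3 comparisons, 18 tests in all. The ratio of miR-486a-3p to miR-486a-5p, the arms of a single hairpin, was the only ratio with a call. In wild-type control mice its log2 was −5.68, −4.19, −3.93, −4.26 and −5.94 in mice 1 to 5 at 3 months, and −6.21 to −5.27 with a median of −5.76 at 6 months. Mice 1 and 5 lay inside the 6-month range and mice 2, 3 and 4 above all of it. The mean differed by −0.95 ± 0.42 (SE; two-sided exact permutation test, p = 0.00542, adjusted p = 0.0488). That adjusted p rests on a smaller p in the same family, from the comparison of genotypes at 6 months for this ratio. Its TG libraries helped to choose the set, and without it the difference in wild-type control mice would not have been called. The call in wild-type control mice was also lost when mouse 2, 3 or 4 was left out, with a difference of −0.80, −0.74 and −0.82 and an adjusted p of 0.130, 0.195 and 0.195 in the exact permutation test.

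In TG mice the log2 ratio was −5.69 to −3.71 at 3 months and −6.55 to −5.66 at 6 months, a difference of −1.88 ± 0.21 (SE), given without a test. Mouse 8 at 3 months, at −5.69, was the only one of 9 within the range of the older mice. Over both genotypes, the 14 libraries at 3 months thus fell into 11 above the range of all 26 libraries at 6 months, at −4.45 to −3.71, and 3 within it. The 3 were wild-type control mice 1 and 5 and TG mouse 8.

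Those 3 libraries stood with the older mice in some other miRNAs as well. miR-126a-3p, an endothelial miRNA, was 8670, 8792 and 9669 CPM in them, 4839 to 7035 CPM in the other 11 libraries at 3 months and 6007 to 11641 CPM at 6 months. miR-211-5p, made in choroid plexus and pigment epithelium, was 32.7, 44.5 and 36.3 CPM, against 11.1 to 29.1 CPM in the other 11 and 27.8 to 70.8 CPM at 6 months. miR-451a was 271, 258 and 356 CPM, against 146 to 246 CPM in the other 11. By contrast, miR-144-3p did not set all 3 apart. It was 0.720, 1.17 and 2.15 CPM in them, 1.59 to 6.47 CPM in the other 11 and 0 to 3.06 CPM at 6 months, so that TG mouse 8 lay within both ranges. What set these libraries apart was not tested. Leaving out wild-type control mice 1 and 5, which by their choice widens the gap between ages, gave a log2FC of 0.88 for miR-451a and −1.41 for miR-486a-3p in wild-type control mice, printed without a test.

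At 6 months the log2 ratio of miR-486a-3p to miR-486a-5p was also lower in TG mice, at −6.12 ± 0.273 (SD, n = 11), than in the controls, at −5.75 ± 0.280 (SD, n = 15). The difference was −0.36 ± 0.11 (SE), and the ranges overlapped. It rests on the TG libraries whose low miR-486a-3p had led to the choice of the set, and is given as a description. At 3 months the difference was in the other direction, 0.56 ± 0.46 (exact permutation test, p = 0.215, adjusted p = 0.540).

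miR-486a-5p per miR-451a, which sets the most abundant arms of the separate loci against each other, differed by −0.58 on the log2 scale with age in wild-type control mice (SE 0.19; exact permutation test, p = 0.0177, adjusted p = 0.106), which did not pass. In TG mice the difference was −0.59. miR-144-3p per miR-451a differed by −1.29 in wild-type control mice (exact permutation test, p = 0.0419, adjusted p = 0.188) and by −1.67 in TG mice. The ratios of miR-16-5p and miR-142a-3p to miR-451a, which set another abundant red cell miRNA and a white cell miRNA against it, differed by −0.96 and −0.81 in wild-type control mice, with an adjusted p of 0.207 each in the exact permutation test. These ratios share miR-451a as their denominator and are not separate observations of its level.

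**Figure D3:**
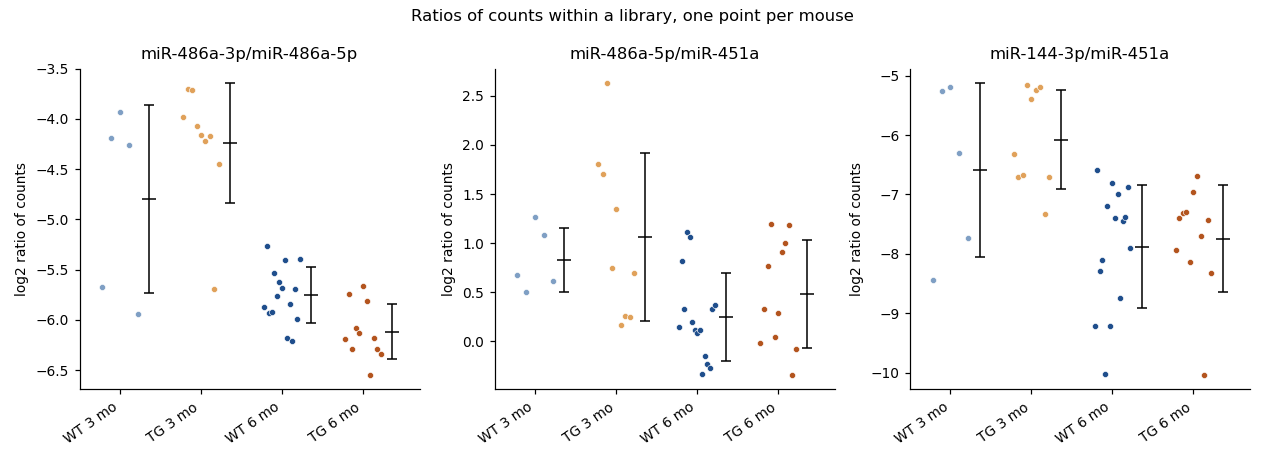
Log2 ratio of counts within each library (vertical axes) by genotype and age, 1 point per mouse, with the mean and SD in black. In the miR-486a-3p/miR-486a-5p panel 11 libraries at 3 months lie between −4.45 and −3.71, and 3 lie among the 6-month libraries.

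Whether the erythroid miRNAs rose and fell together from mouse to mouse was examined on log2 CPM as deviations from the group means over 40 mice. miR-451a was set against 12 other miRNAs and the library size, 13 relations in all, and none passed the adjusted threshold. Its r with miR-486a-5p was 0.17 (permutation p = 0.331, adjusted p = 0.483) and Spearman's rho 0.19 (p = 0.239, adjusted p = 0.328), and r was 0.17 without the 2 mice farthest from the median of miR-451a. Within groups, that r was −0.01 in TG mice at 3 months, 0.47 in wild-type control mice at 6 months and −0.09 in TG mice at 6 months.

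Its r with the neighbouring miR-144-3p was −0.30 (permutation p = 0.0624, adjusted p = 0.164) with rho −0.27 (p = 0.113, adjusted p = 0.328), and −0.27 without the 2 farthest mice. With miR-144-5p r was −0.10 and with miR-16-5p −0.10 (permutation, adjusted p = 0.608 for each). The highest r was 0.40 with the endothelial miR-126a-3p (permutation p = 0.0231, adjusted p = 0.164; rho 0.26), which came to 0.96 in TG mice at 3 months, mouse 8 included, but −0.01 and 0.12 in wild-type control and TG mice at 6 months. These relations rested on the scaling: with library totals alone all 13 passed and 10 changed sign, among them miR-486a-5p at −0.42, miR-144-3p at 0.33, miR-144-5p at 0.57 and miR-16-5p at 0.68. No direction of co-variation with miR-451a is therefore given here.

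By likeness to miR-451a over the 40 mice, a measure without a test, the other erythroid miRNAs ranked 83 (miR-486a-5p), 84 (miR-486b-5p), 230 (miR-144-5p), 313 (miR-486a-3p), 339 (miR-144-3p) and 348 (miR-486b-3p) of 363 miRNAs. The 8 most alike outside the set were miR-24-2-5p (r = 0.64), miR-139-5p (0.63), miR-340-3p (0.62), miR-99a-5p (0.62), miR-29c-5p (0.59), miR-149-5p (0.56), miR-495-3p (0.54) and miR-24-1-5p (0.53). All share the library and its scaling with miR-451a. The ranks were taken on the TMM scale, on which the relations above depended.

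Libraries also differed in base composition, which was measured after the other results had been seen. For each library, the deviation of 312 miRNAs from their mean log2 level was regressed on their G and C content; the slope, called the GC slope, is the change in log2 level per 10% of G and C. It ran from −0.27 to 0.03 in wild-type control and −0.30 to 0.30 in TG mice at 3 months, and from −0.20 to 0.41 and −0.11 to 0.29 at 6 months. The 3 highest slopes among the 3-month mice were those of TG mice 1, 2 and 3, at 0.17, 0.14 and 0.30.

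miR-486a-5p followed the GC slope closely from library to library, with r = 0.91 and rho = 0.85 over 40 mice (permutation p = 1e-05 each, the smallest these permutations can give). The r was 0.91 without the 2 farthest mice, 0.87 to 0.95 within groups of at least 6 mice, and 0.71 with library totals alone. miR-144-5p went the other way, with r = −0.76 and rho = −0.86 (permutation p = 1e-05 each), −0.74 to −0.96 within groups and −0.85 with library totals alone. The slope measures how levels follow G and C content, so a negative r was to be expected for miR-144-5p, at 30.4%. How many of all miRNAs followed the slope as closely was not counted. miR-451a had an r of 0.13 (permutation p = 0.448, adjusted p = 0.465), which became −0.63 with library totals alone.

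In the same family of 27 relations, miR-16-5p, which is abundant in red cells and in many other cells, went against miR-486a-5p with r = −0.88 and with miR-144-5p at r = 0.75 (permutation p = 1e-05 each). miR-486a-5p and miR-144-5p themselves had an r of −0.74 (rho −0.72, permutation p = 1e-05 each; −0.72 without the 2 farthest mice, −0.62 with library totals alone). With library size, r was 0.81 for miR-144-5p and −0.65 for miR-486a-5p (permutation p = 1e-05 each). Without TG mouse 9 and wild-type control mouse 5 at 6 months, the 2 farthest in size, r was 0.74 and −0.53. miR-144-5p had fewer than 10 counts in 5 libraries, which limits its relation to library size. So the guide strand miR-486a-5p and miR-144-5p, both known from red cells, ran opposite to each other across these libraries, and with base composition and depth. The part of either in the differences between groups was not tested.

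**Figure D4:**
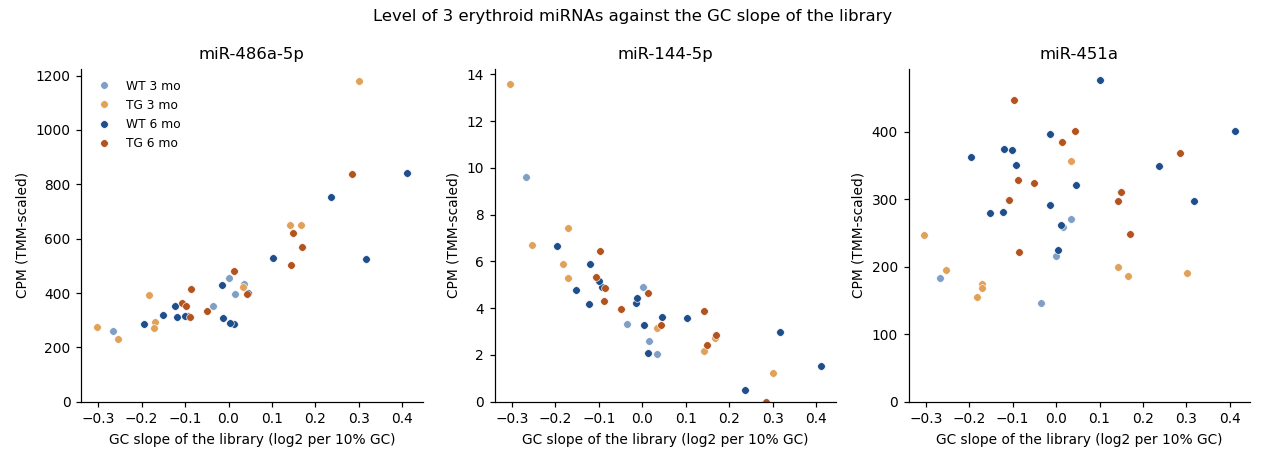
Level in CPM (vertical axes) of miR-486a-5p, miR-144-5p and miR-451a against the GC slope of the library (horizontal axes, log2 per 10% of G and C), 1 point per mouse, coloured by group. miR-486a-5p climbs with the slope (r = 0.91 on the log2 scale with group means removed), miR-144-5p falls (−0.76), and miR-451a has no such trend on this scale (0.13).

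Markers of blood and of other tissues were set beside the erythroid miRNAs by lists chosen with earlier results of these data known. Of 10 other miRNAs listed for red cells, 9 were tested in TG mice between ages, all but miR-451b, which had no count. None was called higher and 2 lower, miR-15a-5p (log2FC −1.67) and miR-185-5p (−0.41), where 15.7% of all miRNAs were called, and the median log2FC of the list was −0.41 against −0.09 for all miRNAs. In wild-type control mice none of 9 was called and the median was −0.23 against −0.02. The summed level of this list was 1751 to 2271 CPM in wild-type control and 2038 to 2917 CPM in TG mice at 3 months, and 1584 to 2616 CPM and 1780 to 2041 CPM at 6 months. The median of the other red cell miRNAs thus lay below that of all miRNAs in each genotype, and the log2FC of miR-451a above it. In TG mice 2 of the 9 had a positive log2FC, up to 0.56. Some of the list exceeded miR-451a in level, such as miR-185-5p with group means of 626 to 852 CPM. How much of the list came from red cells was not tested.

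White cell and platelet miRNAs had 7 tested members, with 1 called lower in TG mice (miR-150-5p, log2FC −0.71, beside 52 lower among 629 miRNAs) and none in wild-type control mice. Microglia of the brain share several miRNAs of this list, and how much of it came from blood was not tested. Within the list, miR-146a-5p alone had group means of 254 to 307 CPM. The median of the list was −0.15 in TG mice and −0.03 in the controls, and its summed level ranged over 432 to 501 CPM in the controls and 341 to 582 CPM in TG mice at 3 months, and over 237 to 551 CPM and 320 to 812 CPM at 6 months. The defining miR-142a-3p had a log2FC of 0.06 ± 0.28 (SE) in TG mice and 0.01 ± 0.27 in the controls, while miR-223-3p, from neutrophils and platelets, had −0.94 ± 0.50 and −0.40 ± 0.40, neither called. No listed white cell miRNA was at 0 in every library.

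Of the vessel wall, miR-126a-3p was called higher at 6 months in TG mice (log2FC 0.73) and its partner miR-126a-5p was not (−0.33), and 0 of 4 miRNAs of smooth muscle and pericytes were called. Among muscle miRNAs, which bear on miR-486 because muscle also makes it, 5 of 8 were tested, 1 was called lower in TG mice (miR-1a-3p, log2FC −0.80) and the median was −0.80, against −0.07 in wild-type control mice. The summed muscle level was 634 to 1698 CPM in TG mice at 3 months and 398 to 895 CPM at 6 months. In TG mice 2 of 2 choroid plexus miRNAs were called higher (median 0.98), 2 of 2 oligodendrocyte miRNAs lower (−0.79), and 1 of 5 neuronal miRNAs higher, miR-128-3p (0.73), where 47 of 629 miRNAs were called higher and 52 lower. The 5 neuronal miRNAs of the list summed to 166470 to 364534 CPM over all libraries. In wild-type control mice, between genotypes at either age and in the interaction, 0 members of any list were called. The part of these cell types in the changes of the erythroid miRNAs was not tested.

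**Figure D5:**
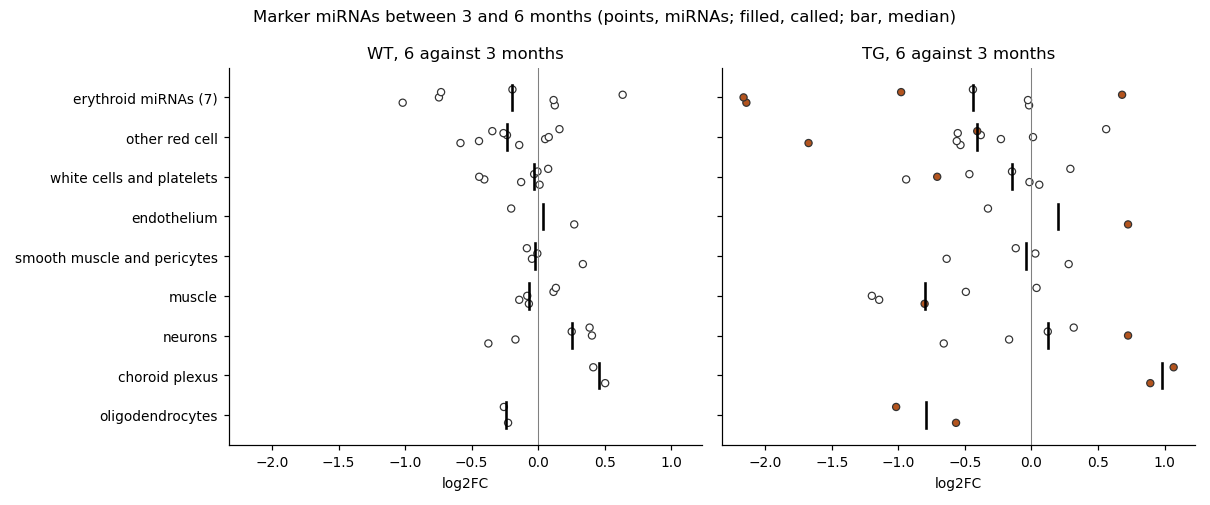
Log2FC between 6 and 3 months (horizontal axes) of the erythroid miRNAs and of 8 marker lists (rows) in wild-type control and TG mice; each point is a miRNA, filled points were called, and the bar is the median of the list. In TG mice the median of the other red cell miRNAs is −0.41, and miR-451a is at 0.68.

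Finally, miR-451a was entered as a covariate in the fits of the other 6 erythroid miRNAs, to compare mice at equal miR-451a. In TG mice between ages the log2FC of miR-486a-3p was then −1.497 ± 0.60 (SE), of miR-486b-3p −1.37 ± 0.57 and of miR-144-3p −1.03 ± 0.47, beside −2.14, −2.16 and −0.98 without the covariate. With it 0 of the 6 were called, as were 0 of all miRNAs. All 11 older TG mice had more miR-451a than the 3-month mean, so that age and miR-451a overlapped in this fit, and its errors were larger. With the mean of miR-142a-3p, miR-223-3p and miR-150-5p as the covariate, the log2FC of miR-486a-3p was −2.15 ± 0.24, and with miR-16-5p, added after the data were examined, −2.11 ± 0.22. In either fit 4 erythroid miRNAs were called, beside 30.5% and 37.5% of all miRNAs, and nothing is read from these counts in the contrast that chose the set. In wild-type control mice 1 erythroid miRNA was called with the white cell covariate, miR-486a-3p, beside 0.303% of all miRNAs, and 2 with miR-16-5p, miR-486a-3p and miR-451a, beside 6.97%.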

How the data were processed

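Total RNA of the hippocampal CA1 region was made into small RNA libraries with the NEBNext kit. Per the methods and processing notes, the authors used bcl2fastq 2.20.2, FastQC 0.11.5 and cutadapt for adapters (2.8 in the submitters' notes; the methods name another version), aligned to mm10 and counted miRBase miRNAs with mirdeep2. The deposited counts are raw reads per pair of mature miRNA and precursor; deposited normalized values were not used. Ligation and PCR without molecular identifiers can favour some base compositions, and were the authors' steps.

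Where a mature miRNA had several precursors, the pair with the largest sum of counts stood for it, and 52 spike-in entries were left out. Groups came from the titles. No 2 libraries were identical. The members, lists and tests were chosen with earlier results of these data known. Comparisons were fitted separately, each on the groups it names, with edgeR 4.0.16 (R 4.3.3): filterByExpr with a minimum count of 10, TMM, robust quasi-likelihood F test and Benjamini-Hochberg adjustment over all miRNAs tested. A miRNA was called where its log2FC was over 0.26 in size and its adjusted p below 0.05. P-values measure the spread between mice. The fit was tested on simulated data. DESeq2 1.42.0 was an alternative, with other scalings, filters, covariates, 1 RUVr factor from its definition, and mice left out. The study used DESeq2 together with RUVSeq for its own tests. Here DESeq2 and the RUVr factor, the latter in edgeR, were run apart. Ratios used counts plus 0.5, and permutation tests all splits or 100000 resamples, two-sided. Correlations used log2 CPM with a prior count of 2. Named miRNAs are the 7 members, the marker lists and the 8 miRNAs most like miR-451a with at least 10 CPM. Other added choices were the GC slope with its 27 relations, the comparison of libraries by age profile, the miR-16-5p covariate and leaving out TG mice 1 to 3, or 3-month libraries near the 6-month mice. Of 1978 miRNAs, 1679 (84.9%) had a sequence in RefSeq, among them 3 of the 7.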

Additional observations from a re-analysis of the deposited data

Results flagged for a closer look

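The log2 ratio of miR-486a-3p to miR-486a-5p in 3-month TG mouse 8 was −5.69, the lowest of 9 and far from the next value of its group, at −4.45. It was the only value flagged by Dixon's test in 26 combinations of a measure and a group of mice, of which about 1 in 20 would be flagged by chance. The same library also held the highest miR-451a of its group. No interaction of age and genotype passed the adjusted threshold for an erythroid miRNA.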

How the results depend on the processing

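In wild-type control mice between ages, where 0 erythroid miRNAs were called, 2 were called by DESeq2, 1 with library totals alone, 3 with a replicate block, 3 with 1 RUVr factor, 1 with the white cell covariate and 2 with miR-16-5p as a covariate. All miRNAs called went from 1 to 25, 2, 250, 171, 2 and 46 under these settings, to 0 with miR-451a as a covariate, to 4 without mouse 1 or 5 and to 0 without mouse 2, 3 or 4. In TG mice between ages, where 4 were called, 0 were called with miR-451a as a covariate, 7 without TG mice 1, 2 and 3, 3 with library totals alone, and 3 to 4 when 1 mouse at a time was left out (3 without mouse 4, 5, 6 or 7). All miRNAs called there went from 99 to 0 with miR-451a as a covariate, 192 with the white cell covariate, 236 with miR-16-5p, 297 with RUVr, 315 without TG mice 1, 2 and 3, and 72 to 131 with 1 mouse left out. Between genotypes at 6 months, RUVr called 3 miRNAs, none of them erythroid. Of the 18 tests of ratios, 2 passed, both of miR-486a-3p per miR-486a-5p and 1 of them in the TG libraries that had helped to choose the set. The other, in wild-type control mice, would not have passed without that test in the family. The number that passed was 0 without wild-type control mice 1 and 2 at 3 months, and 0 to 2 with 1 wild-type control mouse of that age left out. Of the 13 correlations of miR-451a, none passed, but 13 did with library totals alone and 7 with the group means kept.

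Signs turned for the following values, none of which had been called; most were near 0, but miR-486b-3p (−0.75 ± 0.36, SE) and miR-144-3p (−0.73 ± 0.39) in wild-type control mice and miR-486a-3p at 3 months (0.86 ± 0.51) were not. With library totals alone, wild-type control mice gave a log2FC of −0.13 for miR-486a-5p and −0.14 for miR-486b-5p, the interaction was 0.014 and 0.016 for them, and miR-144-3p was −0.11 between genotypes at 6 months. The correlations of miR-451a that turned were −0.42 with miR-486a-5p, −0.41 with miR-486b-5p, 0.33 with miR-144-3p, 0.57 with miR-144-5p, 0.68 with miR-16-5p, 0.60 with miR-142a-3p, 0.50 with miR-223-3p, 0.55 with miR-150-5p, 0.60 with miR-124-3p, 0.32 with library size and −0.63 with the GC slope, and that of miR-486a-3p with library size was 0.0026. With DESeq2 and with its size factors in edgeR, miR-144-3p was −0.0044 and −0.0025 at 6 months and the interaction of miR-451a −0.0077 and −0.0077. With RUVr the interaction was 0.0011 for miR-486a-5p and 0.0041 for miR-486b-5p, and miR-144-5p was 0.034 at 6 months. With miR-451a as a covariate, wild-type control mice gave −0.40 for miR-486a-5p, −0.40 for miR-486b-5p and 0.37 for miR-144-3p. With the white cell covariate they gave −0.23, −0.24 and, for miR-144-5p, 0.17, the interaction was 0.068 and 0.071 for the 5p arms of miR-486, and miR-144-5p was 0.068 at 6 months. With miR-16-5p as a covariate, the 5p arms were −0.053 and −0.058, and miR-144-5p was −0.0011 at 3 months, 0.069 at 6 months and 0.025 in the interaction. Taking the genotype field in place of the title gave 0.13 for miR-144-5p in wild-type control mice, 0.038 for miR-451a at 3 months and −0.081 in its interaction, and leaving out wild-type control mice 1 and 2 gave 0.13 for miR-144-5p and −0.052 for the interaction of miR-451a. Without TG mice 1, 2 and 3, the log2FC at 3 months was −0.26 for miR-486a-5p, −0.27 for miR-486b-5p, −0.055 for miR-486a-3p and 0.0054 for miR-451a, and the interaction was 0.44, 0.45 and, for miR-451a, −0.034. In TG mice between ages, a description, the alternatives also crossed 0 for miR-144-5p (−0.79 to 0.11), miR-486a-5p (−0.14 to 0.59) and miR-486b-5p (−0.15 to 0.59). The interaction of miR-144-3p likewise ran from −0.58 to 0.13. The miR-16-5p covariate, the removal of TG mice 1, 2 and 3 and the added correlations were chosen after the data were examined.

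With 1 mouse left out at a time, signs turned for miR-144-5p in wild-type control mice (−0.38 to 0.30) and at 3 months (−0.080 to 0.77), for miR-451a at 3 months (−0.22 to 0.0034), for the interaction of miR-451a (−0.072 to 0.16), miR-486a-5p (−0.27 to 0.10), miR-486b-5p (−0.27 to 0.11) and miR-144-5p (−0.75 to 0.043), and for miR-16-5p per miR-451a at 3 months (−0.10 to 0.33). In TG mice between ages they also turned for miR-486a-5p (−0.11 to 0.27) and miR-486b-5p (−0.12 to 0.26). Replicate numbers are shared between groups. In wild-type control mice and at 3 months, 2 of 5 same-numbered pairs each correlated above 0.1. At 6 months 9 of 11 did, and in TG mice 7 of 9. In the same order, 0, 1, 1 and 2 mice of the smaller group correlated best with their own number in the other group. The numbers were not taken as pairs, and structure shared by number was not tested further. A replicate block gives each number its own term. In wild-type control mice, the 6-month mice whose number no 3-month mouse shares then have no part in the age difference. With the replicate block, the calls in wild-type control mice were miR-451a (0.78 ± 0.25, SE; adjusted p = 0.0146, edgeR) and the 5p arms of miR-486, which hold 1 measurement (0.64 ± 0.25, adjusted p = 0.0387, and 0.63 ± 0.25, adjusted p = 0.0420), beside 37.9% of all miRNAs. There miR-486a-3p was −0.31 ± 0.38 and miR-486b-3p 0.087, miR-144-5p −0.27 at 3 months and 0.069 at 6 months, and the interaction of miR-451a −0.027. The causes of these shifts were not tested. Depth limited miR-144-3p, miR-486b-3p and miR-144-5p, with under 10 counts in 10, 14 and 5 libraries.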
